A study of Mus musculus with 8 samples.

Results

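The complement and coagulation proteins that the liver makes were followed as a list of 42 genes, among 42982 features tested on the array. The list was given by gene name, with no threshold on a measured value. It holds the early, lectin, alternative and terminal proteins of complement with their regulators, and the clotting factors with the proteins that limit clotting or dissolve clots. All 42 were found through the accession of a probe, and all 42 were well above background on all 8 arrays, so none was lost to the filter on dim probes. The samples were livers of male congenic mice whose background was NZO (New Zealand Obese), an inbred strain that becomes obese and diabetic, with C57BL/6J named as the crossing partner. One group carried the label Ltg/NZO.5.3N/N (called NN here, arrays NN 1, NN 4, NN 6 and NN 7) and the other Ltg/NZO.5.3N/B (called NB here, arrays NB 2, NB 3, NB 5 and NB 8, titled GrH in the labels). The genotypes differed in 5.3 Mbp of chromosome 18, and both ate chow with 45% fat up to week 5, described elsewhere in the labels as 5 weeks of age. The labels do not say where on chromosome 18 the segment lies, which parent line gave each allele, or that every array had its own animal. The p-values therefore rest on array-to-array spread, which may be technical in part.

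Complement is a chain of plasma proteases that tags microbes and damaged cells for uptake and can assemble a membrane pore, and coagulation is a second chain of proteases that turns fibrinogen into a fibrin clot. Hepatocytes secrete most of the plasma pool of both systems. Part of the list belongs to the acute phase response, in which interleukin-6 and interleukin-1 raise transcription in hepatocytes through STAT3, C/EBP and NF-kappaB factors.

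Values are log2 signals relative to the 75th percentile of all probes on the same array, and each gene was read from its brightest probe, so a value compares arrays and not genes. The 75th percentile lay between 445 and 584 intensity units per array and 74.4% to 79.6% of probes stood well above background. The number of arrays, 4 per genotype, limits the precision. Over all features, limma called 3 at a Benjamini-Hochberg adjusted p under 0.05, all with higher signal in NB and none of them on the list. All 10 hepatocyte markers were measured, with a summed log2 level of 10.70 to 10.80 in NN and 10.64 to 10.72 in NB. Their log2 differences, NB minus NN, were below 0 for 8 and above 0 for 2, Alb (0.18) and Apoa1 (0.08). The median of these differences was -0.05, the lowest was that of Cps1 (-0.30, SE 0.127), and none of the markers was called.

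None of the 42 genes passed the test between genotypes, against a background of 0.00698% of features called. The smallest adjusted p of a member was 1 in limma, and the smallest unadjusted p was 0.0590, for Pros1, so 0 of 42 reached an unadjusted p under 0.05, as 1.69% of all features did. That 0 became 4 (Hc, C8a, Pros1 and Cpb2) with quantile normalization and in the authors' value table, where 1.71% and 1.64% of features did, and 3 with normexp background correction (1.56%). It was 3 without NN 7 (2.39%) and 2 without NB 2 (3.38%). No member had its 4 NN arrays wholly above or below its 4 NB arrays, while 1.16% of all features did. That count rested on single arrays: it was 8 without NN 7, where 3.35% of all features did not overlap, 5 without NB 2 (4.3%), 1 without NN 4 (2.18%) and 1 without NN 6 (2.59%). It was also 4 with quantile normalization (1.14%) and in the authors' table (1.04%). These were C1s1, Serping1, Pros1 and Cpb2 in both, so the overlap given for them below depends on the scaling. The intervals were narrow. For 40 of the 42 genes the 95% interval of the difference lay within a 1.5-fold change, and for all 42 it lay within a 2-fold change. The farthest ends of these intervals were 1.64-fold higher in NB, for C8a, and 1.43-fold lower in NB, for C6. Each interval is for 1 gene in the fit as reported and is no bound over the list or over other scalings.

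The fitted log2 difference, NB minus NN, was above 0 for 31 genes and below 0 for 11, where 45.9% of all features were above 0. The median difference of the list was 0.04, against -0.01 over all features, and single genes ran from -0.11 (C8g) to 0.32 (C8a). With 1 array left out at a time, between 26 and 32 of the 42 were above 0. The genes of the list also varied less from array to array than the array as a whole, with a median SD over the 8 arrays of 0.111, against 0.168 over all features. All members were well above background on all 8 arrays, which not all features were. The hepatocyte markers had a median SE of 0.088, near the 0.087 of the members, against 0.118 over all features. The part of brightness in this spread was not tested. In bulk liver, fewer cells of a type and less RNA per cell cannot be told apart.

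**Figure D1:**
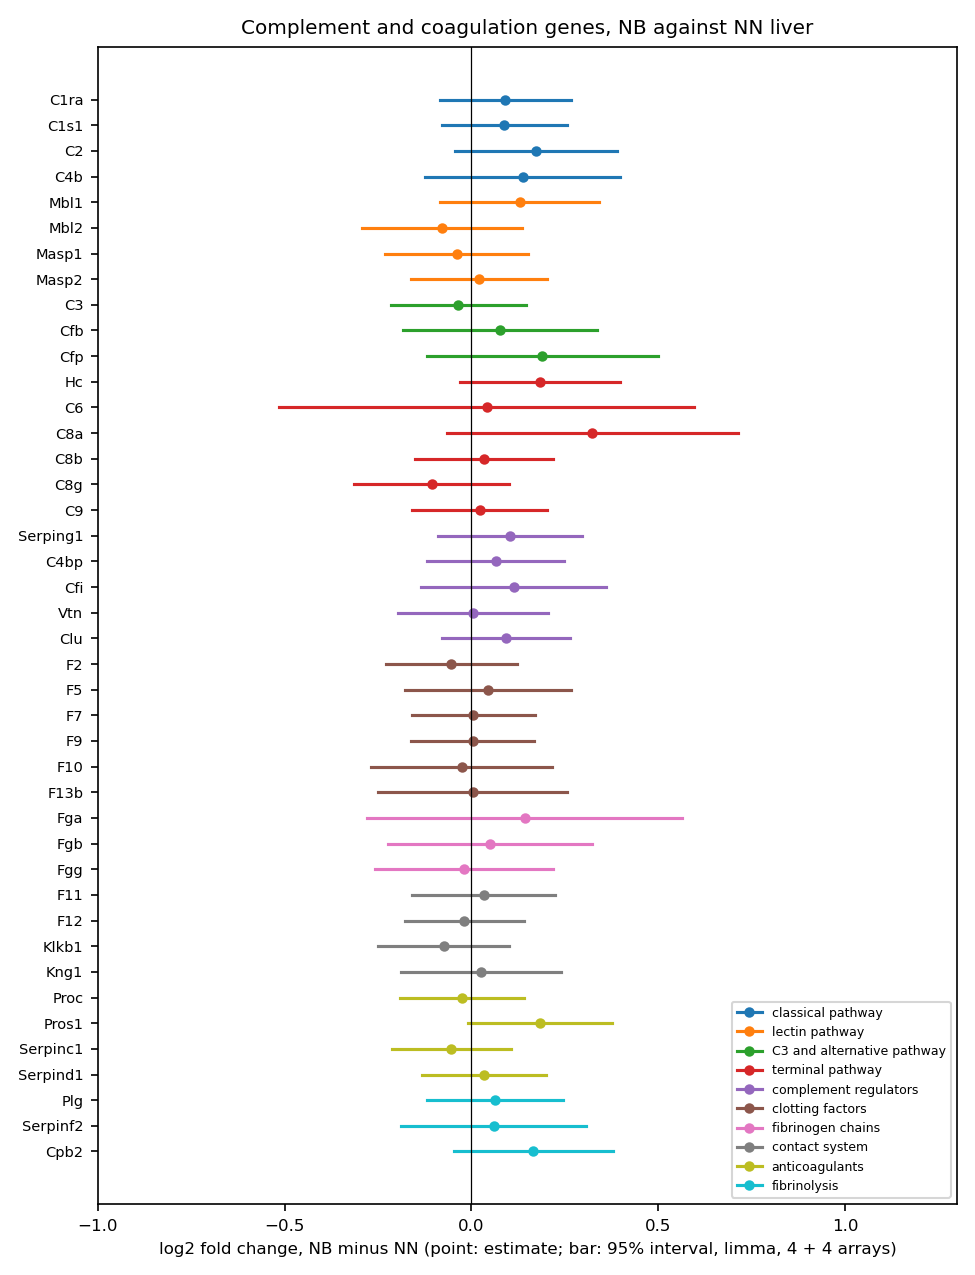
Log2 fold change of each of the 42 genes (rows, coloured by role), NB minus NN, with the limma estimate as a point and its 95% interval as a bar (4 arrays per genotype, x axis in log2 units). Every interval includes 0, and the estimates lie between -0.11 for C8g and 0.32 for C8a.

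The classical pathway starts when C1 binds antibody on a surface. All 4 measured liver components had estimates above 0, with a median of 0.11, and none passed the test. C2, the protease part of the classical C3 convertase, read 4.80, 4.84, 4.86 and 5.02 on NN 1, NN 4, NN 6 and NN 7, and 5.26, 4.99, 5.05 and 4.91 on NB 2, NB 3, NB 5 and NB 8. NB 2 stood highest, but NN 7 lay above NB 3 and NB 8, so the genotypes overlapped. The difference in C2 was 0.17 (SE 0.0952, unadjusted p = 0.104, limma adjusted p = 1). C4b, which C1s cleaves to build that convertase, averaged 6.34 ± 0.171 (SD, n = 4) in NN and 6.48 ± 0.16 (SD, n = 4) in NB, a difference of 0.14 (SE 0.115). The C1 proteases C1ra and C1s1 both differed by 0.09, with SEs of 0.077 and 0.0736. C4b and C1ra and C1s1 have near copies in the mouse genome (C4a, C1rb and C1s2), and whether the probes tell them apart was not tested.

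The lectin pathway begins with collectins that bind microbial sugars. Mbl1, mannose-binding lectin A, had an estimate of 0.13 (SE 0.0937), while Mbl2, mannose-binding lectin C, was among the lowest of the list. Mbl2 read 7.28, 7.07, 7.32 and 7.24 on the NN arrays in the order given above and 7.15, 7.01, 7.12 and 7.32 on the NB arrays. The highest and the lowest Mbl2 arrays, NB 8 and NB 3, were of the same genotype. Its difference was -0.08 (SE 0.0941, unadjusted p = 0.426, limma adjusted p = 1). The lectin-bound proteases Masp1 and Masp2 differed by -0.04 (SE 0.0837) and 0.02 (SE 0.0804). A dimmer probe of Masp1, designed to another of its transcripts, gave 0.07 (SE 0.072), so the probes of this gene differed in sign.

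C3, the protein on which all activation routes converge, read 8.65, 8.58, 8.71 and 8.78 in NN and 8.58, 8.59, 8.77 and 8.64 in NB. The ranges of C3 in the genotypes coincided almost fully, and the difference was -0.04 (SE 0.0794, unadjusted p = 0.664, limma adjusted p = 1). The 95% interval for C3 ran from -0.22 to 0.14 on the log2 scale, or from 1.16-fold lower to 1.11-fold higher signal in NB. Cfb, the protease of the alternative convertase, differed by 0.08 (SE 0.114) on its brightest probe and by 0.14 (SE 0.129) on the other. Cfp, properdin, which stabilises that convertase and is known as a product of myeloid cells, differed by 0.19 (SE 0.136). Properdin read 1.78, 1.76, 2.11 and 2.22 in NN and 1.90, 2.33, 2.21 and 2.19 in NB, lowest on NN 4, NN 1 and NB 2. Of 10 Kupffer cell markers (the resident macrophages of liver), all 10 passed the filter on dim probes and 9 had estimates above 0. Their summed log2 level was 5.98 to 6.21 in NN and 6.27 to 6.43 in NB, so the sums did not overlap. Csf1r was the 1 marker of the 10 whose own arrays did not overlap, at 3.77 to 3.99 in NN and 4.32 to 4.38 in NB. Among all features, 1.16% did not overlap. The sums include Csf1r, so their separation is not that of the 10 markers as a set. The median differences of the markers from their gene means overlapped, with NB 2 at -0.10 and NN 6 and NN 7 at 0.02. The part of the Kupffer cell markers in the values of Cfp was not tested.

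The terminal proteins build the membrane pore once C5 has been cleaved. Hc, the mouse C5, read 6.23, 6.21, 6.38 and 6.54 in NN and 6.42, 6.58, 6.60 and 6.49 in NB. Only NN 7 reached into the range of the NB arrays, above NB 2 and NB 8. The difference in Hc was 0.18 (SE 0.0948, unadjusted p = 0.0856, limma adjusted p = 1). C9, the subunit that polymerises into the pore wall, differed by 0.02 (SE 0.0794). C6, which joins the complex after C5b, was the most variable gene of the list. On the NN arrays C6 read 3.56, 3.50, 3.06 and 2.76, and on the NB arrays 3.83, 3.05, 3.30 and 2.85. Both genotypes spanned most of that range of 1.08 log2 units, and the difference in their means was 0.04 (SE 0.245).

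The C8 complex, which anchors the pore in the membrane, joins 3 chains from separate genes: C8a, C8b and C8g. C8a and C8b are neighbours on chromosome 4, with no gene between them in RefSeq GRCm38.p6, and C8g lies on chromosome 2. C8a read 4.18, 4.34, 4.70 and 4.73 in NN and 4.42, 5.04, 4.84 and 4.94 in NB. NB 3, NB 5 and NB 8 were above every NN array, and NB 2 was below NN 6 and NN 7. The difference of 0.32 (SE 0.171), or 1.25-fold, had a 95% interval from -0.07 to 0.71 (unadjusted p = 0.0923, limma adjusted p = 1). A second, dimmer probe of C8a gave 0.22 (SE 0.131). C8g read 7.36, 7.18, 7.12 and 7.20 in NN and 7.27, 6.97, 7.11 and 7.08 in NB, with a difference of -0.11 (SE 0.091, unadjusted p = 0.274, limma adjusted p = 1). C8g was thus highest on NN 1 and NB 2, where C8a was among its lowest. C8b differed by 0.03 (SE 0.0818) and stayed within 0.25 log2 units over all 8 arrays.

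The promoters of the neighbouring C8a and C8b genes are shown because these genes differed so much in spread: C8a ranged over 0.86 log2 units and C8b over 0.25. Each run gives the 250 bases before the RefSeq start, 5′ to 3′ on the strand of the gene, in build GRCm38.p6, for C8a chr4:104876399-104876648 on the minus strand and for C8b chr4:104766067-104766316 on the plus strand. Capitals mark matches on either strand to 4 short motifs: the STAT consensus TTCNNNGAA, the acute phase element CTGGGAA, the C/EBP consensus TTGCNNAA and the HNF1 core GTTAAT.
C8a: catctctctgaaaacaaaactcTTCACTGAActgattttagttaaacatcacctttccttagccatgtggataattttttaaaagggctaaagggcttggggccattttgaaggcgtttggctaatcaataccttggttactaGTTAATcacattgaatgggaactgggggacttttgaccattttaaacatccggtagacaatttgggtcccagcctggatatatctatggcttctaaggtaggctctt
C8b: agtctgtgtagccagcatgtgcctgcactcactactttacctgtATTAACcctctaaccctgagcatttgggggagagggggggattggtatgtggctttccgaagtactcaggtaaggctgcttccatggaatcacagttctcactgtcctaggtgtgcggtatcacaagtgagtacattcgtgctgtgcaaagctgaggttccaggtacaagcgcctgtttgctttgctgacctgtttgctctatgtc
In C8a the script found TTCNNNGAA from 228 to 220 bases and GTTAAT from 107 to 102 bases before the start. C8b held 1 match, GTTAAT on the opposite strand, from 206 to 201 bases before the start. These matches are letters in a window and were not tested as binding sites.

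Over the 8 arrays, C8a and C8g ran in opposite order, with Pearson r = -0.90 (exact permutation p = 0.00196, adjusted p = 0.0235 over the 12 partner pairs computed) and Spearman rho = -0.88 (exact permutation p = 0.00724, adjusted p = 0.0435). Without NN 1 and NN 4, the arrays farthest from the median of C8a, r was -0.94. With the mean of each genotype removed, r was -0.87 and the adjusted exact permutation p was 0.146. The lowest arrays of C8a, NN 1, NN 4 and NB 2, were also the lowest of 7.79% of features. The share of other gene pairs with such an r was not computed. With 4 arrays, a genotype is too small for a correlation of its own. C8a and C8b showed no such relation, with r = -0.01 and rho = 0.00 (exact permutation p = 0.981 and 1, adjusted p = 0.981 and 1), and r was -0.49 without NN 1 and NN 4. C8b and C8g had r = 0.36 and rho = 0.29 (exact permutation p = 0.376 and 0.501, adjusted p = 0.565 and 0.601), and r was -0.21 without NN 4 and NB 3.

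**Figure D2:**
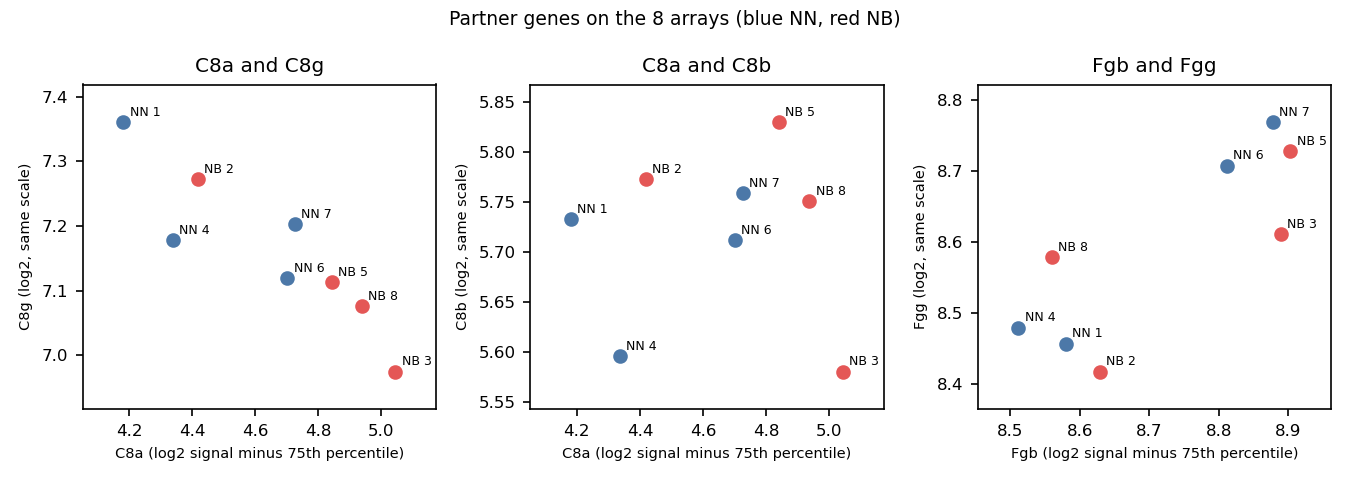
Log2 signal of C8a against C8g, C8a against C8b and Fgb against Fgg, each point 1 array (blue NN, red NB), both axes relative to the 75th percentile of the array. C8g falls from 7.36 on NN 1 to 6.97 on NB 3 as C8a goes from 4.18 to 5.04, and C8b shows no order with C8a.

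Complement regulators keep the cascade off host cells. All 5 had estimates above 0, from 0.00 to 0.11, and none passed the test. Serping1, the C1 inhibitor, which also blocks kallikrein and factor XII, differed by 0.10 (SE 0.0852). Cfi, factor I, which cleaves C3b and C4b, differed by 0.11 (SE 0.109), and its cofactor C4bp by 0.07 (SE 0.0806). The NN arrays of Cfi were spread from 6.37 on NN 4 to 6.89 on NN 7, while the NB arrays lay between 6.72 and 6.77. Clu and Vtn, which hold the pore complex in solution, differed by 0.09 (SE 0.0755) and by 0.00 (SE 0.0886).

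Among the clotting factors the genotypes were nearest to each other. The 6 estimates ran from -0.05 to 0.05, with a median of 0.00. F2, prothrombin, whose active form cleaves fibrinogen, read 7.21, 7.20, 7.27 and 7.35 in NN and 7.09, 7.24, 7.19 and 7.29 in NB. NB 2 was lowest and NN 7 highest, and the other arrays were interleaved. Its difference was -0.05 (SE 0.0771, unadjusted p = 0.503, limma adjusted p = 1), with a 95% interval from -0.23 to 0.12. F7, which starts the extrinsic route with tissue factor, differed by 0.01 (SE 0.072), and F9, the haemophilia B factor, by 0.00 (SE 0.0724). Their values over all 8 arrays spanned only 0.16 log2 units each. F10, which converts prothrombin, differed by -0.03 (SE 0.107), its cofactor F5 by 0.05 (SE 0.098), and F13b, the carrier subunit of the fibrin cross-linking enzyme, by 0.00 (SE 0.111). The 6 members that need vitamin K for carboxylation (F2, F7, F9, F10, Proc and Pros1) had a median of -0.01, with 3 above 0 and 3 below.

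Fibrinogen, the clot precursor, is a dimer of 3 chains whose genes lie together on chromosome 3. In RefSeq GRCm38.p6, Fgg and Fga are adjacent and 1 gene separates Fga from Fgb. Fga read 7.67, 7.65, 8.23 and 8.16 in NN and 7.67, 8.34, 8.17 and 8.11 in NB. The arrays NN 1, NN 4 and NB 2 stood together at 7.65 to 7.67, and the other 5 lay at or above 8.11, in both genotypes. The difference in Fga was 0.14 (SE 0.186, unadjusted p = 0.461, limma adjusted p = 1), and a dimmer Fga probe, designed to another transcript, gave 0.29 (SE 0.213). Fgb read 8.58, 8.51, 8.81 and 8.88 in NN and 8.63, 8.89, 8.90 and 8.56 in NB. Here NB 8 joined NN 1, NN 4 and NB 2 at the low end, and the difference was 0.05 (SE 0.121). Fgg read 8.46, 8.48, 8.71 and 8.77 in NN and 8.42, 8.61, 8.73 and 8.58 in NB, with the same 3 arrays lowest as in Fga and a difference of -0.02 (SE 0.105).

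The fibrinogen promoters are shown because NN 1 and NN 4 were among the lowest arrays of each chain. They are given as above, in GRCm38.p6, for Fga chr3:83025903-83026152 on the plus strand, for Fgb chr3:83049864-83050113 on the minus strand and for Fgg chr3:83007474-83007723 on the plus strand, with the same motifs in capitals.
Fga: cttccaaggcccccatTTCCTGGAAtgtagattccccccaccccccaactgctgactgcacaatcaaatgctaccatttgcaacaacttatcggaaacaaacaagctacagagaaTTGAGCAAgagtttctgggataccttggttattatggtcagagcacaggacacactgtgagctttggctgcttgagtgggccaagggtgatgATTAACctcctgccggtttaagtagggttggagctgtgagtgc
Fgb: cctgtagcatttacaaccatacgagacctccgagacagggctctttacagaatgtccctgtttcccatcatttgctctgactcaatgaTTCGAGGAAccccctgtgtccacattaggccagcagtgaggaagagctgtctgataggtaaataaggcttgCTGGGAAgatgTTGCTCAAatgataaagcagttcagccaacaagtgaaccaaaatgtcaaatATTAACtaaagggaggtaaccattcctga
Fgg: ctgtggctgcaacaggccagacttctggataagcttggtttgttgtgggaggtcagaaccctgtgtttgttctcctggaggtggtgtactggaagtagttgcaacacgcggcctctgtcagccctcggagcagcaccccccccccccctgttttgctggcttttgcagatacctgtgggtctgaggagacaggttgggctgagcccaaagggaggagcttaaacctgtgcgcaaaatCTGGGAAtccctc
Fga held TTCNNNGAA from 234 to 226, TTGCNNAA on the opposite strand from 135 to 128 and GTTAAT on the opposite strand from 43 to 38 bases before the start. Fgb held all 4 motifs: TTCNNNGAA from 162 to 154, CTGGGAA from 91 to 85, TTGCNNAA from 80 to 73 and GTTAAT on the opposite strand from 29 to 24 bases before the start. Fgg held CTGGGAA, from 13 to 7 bases before the start.

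Of the 42 genes, 32 had a promoter in the RefSeq table, and 8 motifs were searched on both strands of the 250 bases before the start. The 32 genes had 34 promoters, and a gene counted if any of its promoters matched. The shares over all promoters are per promoter. GTTAAT was in the promoters of 10 of the 32 genes, against 6.43% of all 32851 promoters, and TTGCNNAA in 8, against 9.56%. TTCNNNGAA was in 6 (C8a, F9, Fga, Fgb, Masp2 and Pros1), against 7.02% of all promoters, and CTGGGAA in 5, against 9.1%. TATAAA was in 3, against 12.4%. The full palindromic HNF1 site, the HNF4 sequence CAAAGTCCA and an NF-kappaB consensus were in none of the 32, against 0.0335%, 0.384% and 1.41% of all promoters. TTCNNNGAA reads the same on both strands, and a full HNF1 site would also hold a GTTAAT match.

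Fgb and Fgg had r = 0.82 and rho = 0.67 over the 8 arrays (exact permutation p = 0.0307 and 0.0831, adjusted p = 0.0872 and 0.199), r = 0.76 without NN 4 and NB 5, and r = 0.84 with genotype means removed. The values of Fga fell into separate groups of arrays, so no correlation is given for Fga with Fgb or Fgg, nor for C3 with Cfb, whose arrays also parted. Of the 9 pairs that could be tested, C8a with C8g was the only one with an adjusted p for r under 0.05. C1ra and C1s1, the paired proteases of C1, had r = 0.81 and rho = 0.88 (exact permutation p = 0.0112 and 0.00724, adjusted p = 0.067 and 0.0435), but r = 0.36 without NB 3 and NB 8, so the relation rests on those arrays. For the pairs Mbl1 with Mbl2, Masp1 with Masp2, Klkb1 with Kng1 and F2 with Plg, r was 0.25, -0.20, -0.21 and 0.54 and rho 0.31, 0.10, -0.31 and 0.52 (exact permutation p of r between 0.162 and 0.604, adjusted p of r between 0.296 and 0.659, exact permutation p of rho between 0.197 and 0.840, adjusted p of rho between 0.337 and 0.917). Without the arrays farthest from the median of the first gene, r for these pairs was -0.42, -0.52, 0.32 and 0.36.

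The contact system starts clotting on charged surfaces and releases bradykinin. F12, its first protease, was the steadiest gene of the list, with a range of 0.16 log2 units over 8 arrays and a difference of -0.02 (SE 0.0699). F11, the next protease, differed by 0.03 (SE 0.084) and Kng1, the kininogen that gives bradykinin, by 0.03 (SE 0.0946). Klkb1, plasma prekallikrein, read 5.46, 5.42, 5.25 and 5.33 in NN and 5.26, 5.26, 5.28 and 5.38 in NB. NN 1 and NN 4 were highest, NN 6 lowest, and NB 8 lay above NN 6 and NN 7. Its difference was -0.07 (SE 0.0768, unadjusted p = 0.358, limma adjusted p = 1).

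Of the anticoagulants, Pros1, protein S, the cofactor of activated protein C, had the smallest p of the list. Pros1 read 3.53, 3.46, 3.59 and 3.70 in NN and 3.62, 3.79, 3.84 and 3.76 in NB. NB 3, NB 5 and NB 8 were above every NN array, and NB 2 lay below NN 7. The difference of 0.18 (SE 0.0847), or 1.14-fold, had a 95% interval from -0.01 to 0.38 (unadjusted p = 0.0590, limma adjusted p = 1). Proc, protein C, which protein S assists, is the one member that RefSeq places on chromosome 18, and whether it lies in the congenic segment was not examined. Proc read 6.25, 6.17, 6.09 and 6.16 in NN and 6.23, 6.10, 6.16 and 6.07 in NB, a difference of -0.03 (SE 0.0732) with a 95% interval from -0.19 to 0.14. Serpinc1, antithrombin, read 7.53, 7.47, 7.52 and 7.61 in NN and 7.40, 7.50, 7.52 and 7.50 in NB. NB 2 was its lowest array and NN 7 its highest, with a difference of -0.05 (SE 0.07, unadjusted p = 0.458, limma adjusted p = 1). Serpind1, heparin cofactor II, differed by 0.03 (SE 0.073).

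The 3 proteins of fibrinolysis on the list all had estimates above 0. Cpb2, the carboxypeptidase TAFI, which slows clot lysis, read 6.06, 5.91, 6.13 and 6.28 in NN and 6.19, 6.22, 6.32 and 6.32 in NB. NN 7 stood above NB 2 and NB 3, and the other NN arrays lay below all of NB. The difference in Cpb2 was 0.17 (SE 0.0939, unadjusted p = 0.113, limma adjusted p = 1). Plg, plasminogen, and its counterpart Serpinf2, the plasmin inhibitor, both differed by 0.06, with SEs of 0.0802 and 0.109.

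**Figure D3:**
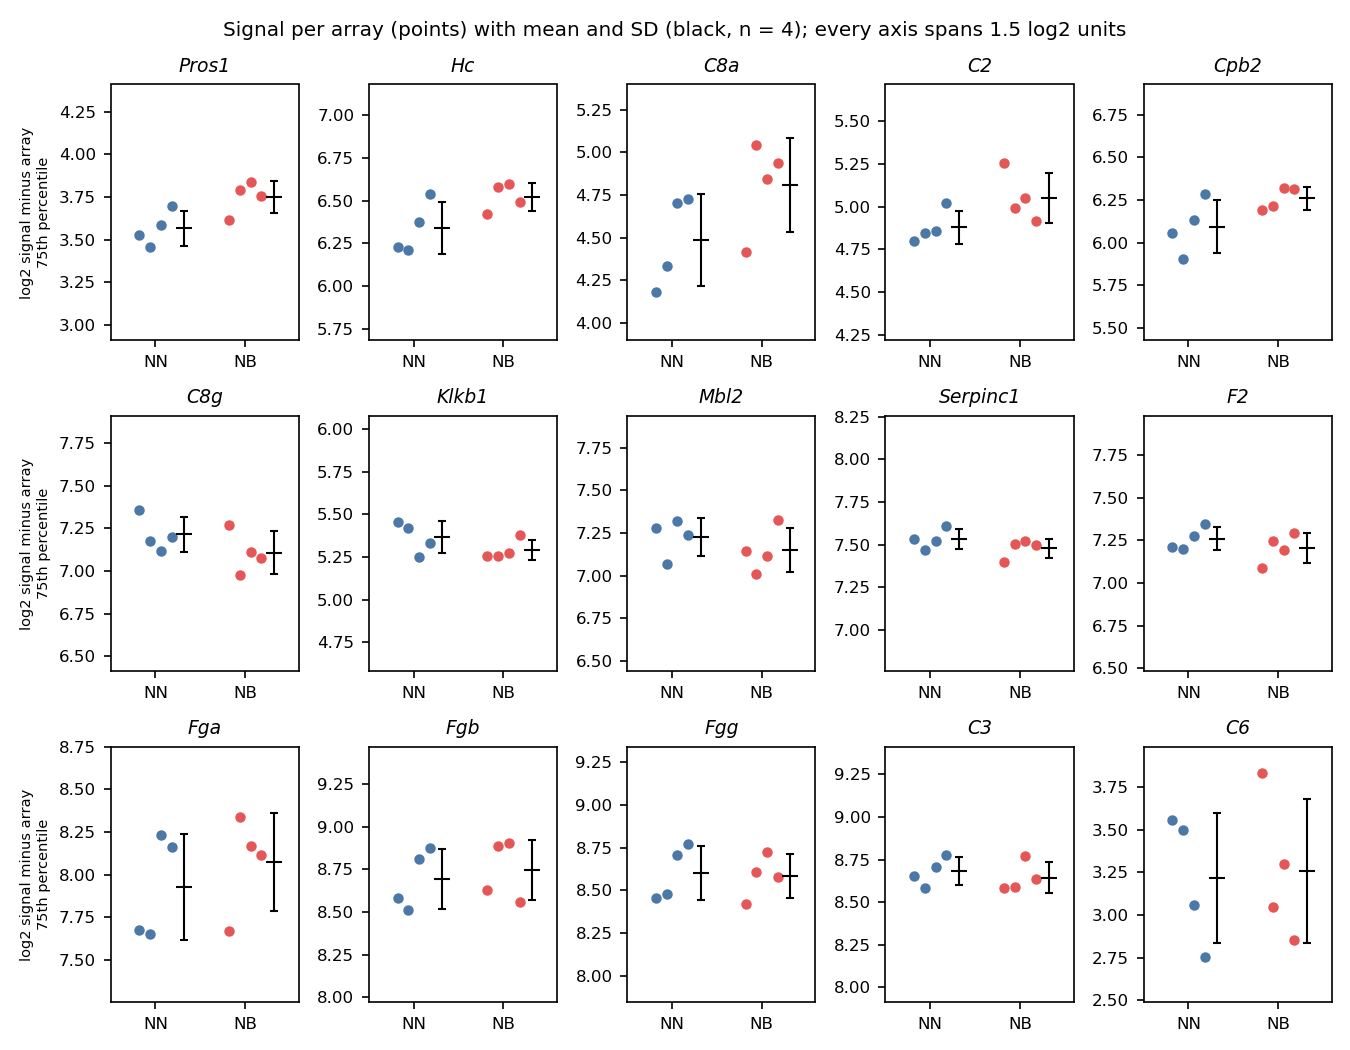
Log2 signal of 15 genes on each array (points, blue NN, red NB) with the mean and SD of the genotype beside them (black, n = 4), relative to the 75th percentile of the array. Every panel spans 1.5 log2 units: NN and NB points overlap in all 15 panels, and C6 and C8a are the most spread.

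The larger contrast lay between arrays within each genotype. NN 1, NN 4 and NB 2 were the 3 lowest arrays for 13 of the 42 genes, against 7.79% of 42512 features with a value on every array, a set of arrays picked after the values were seen. These 13 were C1s1, C4b, Cfb, Cfp, C8a, C4bp, Vtn, F10, Fga, Fgg, Kng1, Plg and Serpinf2, from both cascades. For C6 and Proc the same arrays were the 3 highest, against 6.75% of features. The same 3 arrays also had the highest 75th percentiles of signal (538, 516 and 584 intensity units) and were 3 of the 4 arrays in the first columns of the slide. The fourth array there, NB 3, had a 75th percentile of 514. Its median difference from the gene means of the members was 0.05. The part of signal level or slide position in this order was not tested. Under other background corrections or scalings of the arrays the count was 10 to 16, against 7.66% to 11.4% of features. With no scaling it was 1, Fga, against 1.56%, and the same arrays were highest for 7 of the 42, against 21.8% of features, a share of the members below that of all features.

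**Figure D4:**
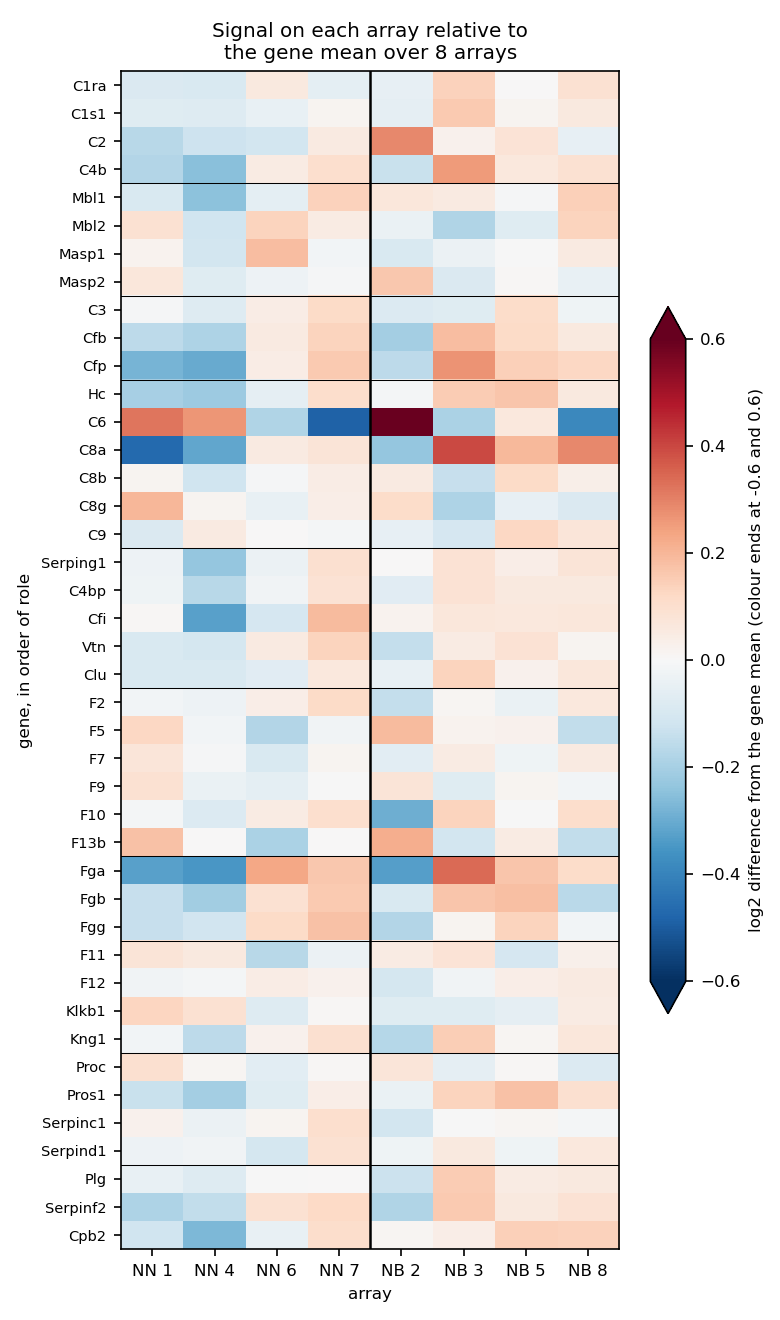
Log2 difference of each array from the mean of the gene over 8 arrays, for the 42 genes (rows, grouped by role) and the arrays (columns, NN left of the line and NB right of it). Blue cells recur on NN 1, NN 4 and NB 2, for 13 genes as their 3 lowest arrays, while C6 is red on the same arrays; colours end at -0.6 and 0.6.

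Acute phase genes that are not on the list were, in their median, also lowest on NN 1, NN 4 and NB 2, with wider steps. Their highest array was NB 3 and that of the members NN 7. Their median difference from the gene means was -0.34 on NN 1, -0.54 on NN 4 and -0.36 on NB 2, and between 0.02 and 0.42 on the other arrays (20 of 21 genes measured). Hamp, hepcidin, ran the other way, at 5.27, 6.17 and 5.97 on those 3 arrays and 3.96 to 4.94 on the others. The 10 members known to be raised in the acute phase (C3, C4b, Cfb, C9, Serping1, C1ra, C1s1 and the fibrinogen chains) had medians of -0.11, -0.15 and -0.09 on those arrays and between 0.05 and 0.15 on the others. Over all 42 members these medians were -0.03, -0.10 and -0.05, against -0.01 to 0.07. The medians of the Kupffer cell markers were -0.17, -0.21 and -0.10 on the same arrays and 0.02 to 0.22 on the others, and those of the hepatocyte markers stayed between -0.08 and 0.07 on all 8. The part of these markers in the order of the members was not tested.

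**Figure D5:**
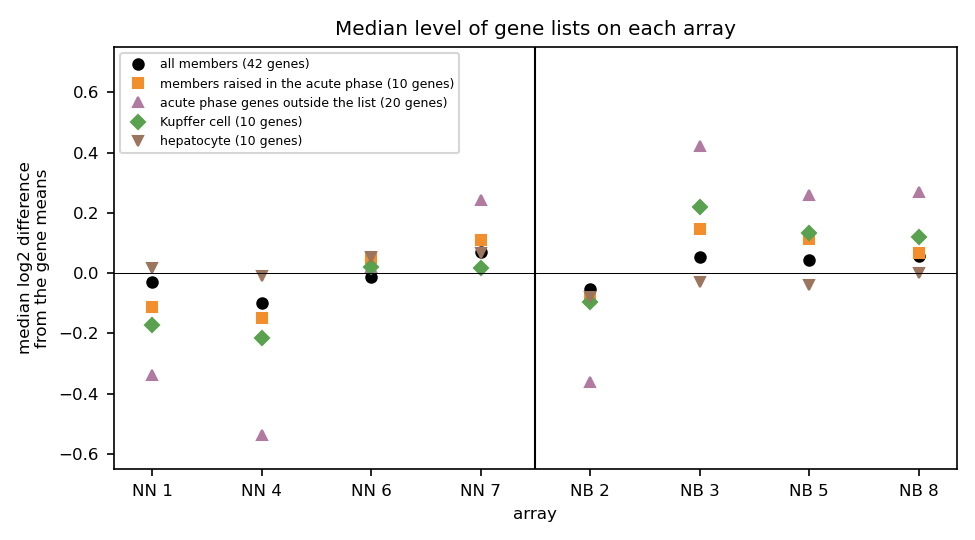
Median log2 difference from the gene means on each array for all 42 members, the 10 members raised in the acute phase, 20 acute phase genes outside the list, and 10 markers each of Kupffer cells and hepatocytes. The acute phase genes run from -0.54 on NN 4 to 0.42 on NB 3, and the members from -0.10 to 0.07.

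By genotype, the acute phase genes outside the list had estimates above 0 in 19 of 20, with a median of 0.32, yet none passed the test. Their medians were lowest on NN 1, NN 4 and NB 2, more of them NN than NB. The 20 estimates come from the same arrays and are not 20 independent results. The part of this array order in them was not tested. Among them were Lcn2, the siderophore-binding lipocalin (0.79, SE 0.409), and Il1rn, the interleukin-1 receptor antagonist (0.47, SE 0.229). Saa4 (0.29, SE 0.146) was counted with them, though it is the constitutive serum amyloid A. Hamp was the one below 0 (-0.50, SE 0.546). The members raised in the acute phase were above 0 in 8 of 10, with a median of 0.08, and C3 and Fgg were below 0.

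Of 31 other complement genes, 29 were measured and none passed the test, with 22 above 0 and a median of 0.04. C4a, the near copy of C4b, differed by 0.26 (SE 0.113, unadjusted p = 0.0460, limma adjusted p = 1), the one with an unadjusted p under 0.05. C5ar2, a C5a receptor, differed by 0.25 (SE 0.15), and C1s2, the near copy of C1s1, by 0.13 (SE 0.0762). Among those below 0, the smallest p belonged to C1rl, a C1r-like protease (-0.10, SE 0.0709), and the membrane regulators Cd46 (-0.16, SE 0.203) and Cd59a (-0.07, SE 0.123).

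Of 35 other coagulation genes, 34 were measured and none passed the test, with 20 above 0 and a median of 0.02. Serpina10, the protein Z-dependent inhibitor, differed by 0.24 (SE 0.207), the protease trap Pzp by 0.14 (SE 0.128) and the plasminogen activator Plat by 0.07 (SE 0.0755). The other activator, Plau, differed by -0.13 (SE 0.0966), and the plasminogen receptor chains S100a10 and Anxa2 by -0.12 each (SE 0.108 and 0.142).

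Among 13 transcription factors and signalling genes that act on liver plasma protein genes, none passed the test, with 8 above 0 and a median of 0.04. Il1r1, the interleukin-1 receptor, differed by 0.24 (SE 0.167), Onecut1 by 0.19 (SE 0.217) and Foxa2 by 0.19 (SE 0.226), values that moved widely with the processing and with single arrays left out. The hepatocyte factors Cebpa and Hnf4a differed by -0.08 (SE 0.123) and -0.04 (SE 0.124), and the NF-kappaB subunit Nfkb1 by -0.02 (SE 0.0717).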

How the data were processed

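Liver RNA of 4 NN and 4 NB samples was labelled with Cy3 and read on 1-colour Agilent arrays of 1 slide, on which each column held 1 array of each genotype. Per the file headers, each intensity had its background subtracted and spatial trends removed by Agilent Feature Extraction 11.5.1.1. Version 9.1 stands in the submitters' processing notes. The authors' deposited value table holds linear intensities of unstated scale, with the same sorted values and a median of 84.2 on every array, and was used as an alternative. RNA was selected for integrity, per the labels' protocols.

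The deposited intensities were taken to log2, reduced by the 75th percentile of their array, cleared of control and outlier spots (248 to 621 per array, none saturated) and averaged per probe. Probes well above background on at least 4 arrays were kept, genes were named through RefSeq (GRCm38.p6) accessions (31064 of 60273 probes) and read from the brightest probe, and signals near background understate differences. Genotypes were compared over all features with limma 3.58.1 in R 4.3.3 (two-sided, Benjamini-Hochberg, threshold 0.05), with SEs and 95% intervals from the same fit. The limma fit, not the steps before it, was tested on simulated data. Partner pairs were compared with exact permutation over all 40320 orders of 8 arrays. Arrays counted as parted where the largest gap exceeded 0.5 of the range, a rule chosen after the data were seen. Promoters were read as letters only. The file headers name mm9, and the positions printed are those of the promoter table, in GRCm38.p6.

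All members are reported by role. Values on each array are given for the 5 members with the smallest p in each direction, the fibrinogen chains, C3 and F2, and, chosen after their values were seen or for their position, for C6, Cfp and Proc. Of each pathway list the 3 genes with the smallest p in each direction are named. Members and lists were chosen with earlier results of these data known. As alternatives, normexp (offset 50), median and quantile scaling, the authors' table, other filters on dim probes, probe means, a trended robust variance, array weights, the position on the slide, an adjusted p of 0.1 and fits without each array in turn were run.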

Additional observations from a re-analysis of the deposited data

Results flagged for a closer look

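In 84 sets of 4 arrays, 1 for each member and genotype, 3 held an array far from the other 3, where about 5% would by chance. Cfi on NB 2, at 6.72, was below the other NB arrays, which lay at 6.76 to 6.77. Clu on NN 7, at 7.99, was above the other NN arrays, at 7.83 to 7.85. Klkb1 on NB 8, at 5.38, was above the other NB arrays, at 5.26 to 5.28.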

How the results depend on the processing

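No member passed an adjusted p under 0.05, or under 0.1, in any of the alternatives run or with any 1 array left out. The members above 0 were 30 to 35 under the alternatives that keep all arrays, and their median log2 difference was 0.02 to 0.08 over all alternatives. Members with an unadjusted p under 0.05 were 0 as reported and 0 to 4 over the alternatives, with 1 each for trended robust variance (Pros1, against 1.28% of features) and array weights (Pros1, 2.71%). Members whose genotypes do not overlap were 4 with quantile normalization (1.14% of features) and 4 in the authors' table (1.04%) in place of 0, and 0 to 8 with 1 array left out (2.18% to 4.3% of features). The features called were 5 with the mean of the probes of a gene and 2 to 3 with 1 array left out. C8a with C8g had r = -0.87 with genotype means removed (exact permutation, adjusted p = 0.146), and -0.93 with normexp (adjusted p = 0.0143). The C8a difference ran from 0.22 to 0.45, that of Pros1 from 0.15 to 0.23 and that of Hc from 0.14 to 0.25. Signs turned for 0 to 8 members per alternative, the largest of them F2, reported at -0.05, so no direction is claimed for those. Of the other genes named, Foxa2 ran from -0.01 to 0.32, Cd46 from -0.31 to 0.05, Onecut1 from 0.04 to 0.37, Il1r1 from 0.07 to 0.32, C5ar2 from 0.08 to 0.34 and Hamp from -0.95 to -0.13. Under normexp Serpind1 was 0.10 and Plat was -0.02. NN 1, NN 4 and NB 2 were the 3 lowest arrays for 1 member with no scaling, against 1.56% of features, and the 3 highest for 1 with normexp (4.5%), 1 with median scaling (4.11%) and 7 with no scaling (21.8%). The cause of these shifts was not tested. The genotypes share no sample number in the labels, so no pairing of samples was taken from them. With the slide column as a block, which sets 1 array of each genotype side by side though the labels name no pairing, 0 members passed, and C8a alone had an unadjusted p under 0.05 (0.0332, against 2.86% of features, limma).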

Other observations

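Plasma clotting also depends on platelets, whose granules and surface carry fibrinogen and its receptor. All 6 platelet and megakaryocyte markers had estimates above 0, with a median log2 difference of 0.11, NB minus NN, and none passed the test in limma or reached an unadjusted p under 0.05. Their summed log2 level was 0.96 to 1.1 in NN and 0.99 to 1.23 in NB, so the genotypes overlapped. Pf4, platelet factor 4, differed by 0.17 (SE 0.14), Ppbp, the platelet basic protein, by 0.19 (SE 0.17) and Itga2b, the fibrinogen receptor chain, by 0.02 (SE 0.084). The C1q chains, which macrophages make and which bind C1r and C1s, differed by 0.17 (C1qa, SE 0.136), 0.22 (C1qb, SE 0.157) and 0.04 (C1qc, SE 0.0682).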
